A study of Homo sapiens with 6 samples.

Results

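The genes described here are 10 members of the system that cuts and protects the extracellular matrix. They comprise 5 secreted matrix metalloproteinases (MMP1, MMP2, MMP9, MMP10 and MMP19), 2 membrane-bound ones (MMP14 and MMP16) and 3 tissue inhibitors of metalloproteinases (TIMP1, TIMP2 and TIMP3). They were found by exact gene name, and all 10 had a row among the 20851 genes of the count table. RNA was sequenced from A375, an established human melanoma line, in 2 groups of 3 libraries. A375RIPK4.KO cells carry a CRISPR/Cas9 knockout of RIPK4, a receptor-interacting serine/threonine kinase, introduced with a lentiviral guide, and all of these libraries stem from clone #1. A375neg cells received a non-targeting guide and are labelled as a GFP control, so that both groups had passed through lentiviral editing. The knockout libraries represent a single clone, and an effect of RIPK4 cannot be told apart from a difference between clones. The design text calls the replicates biological.

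Metalloproteinases are made as inactive proenzymes whose propeptide must be removed. MMP1 is a collagenase that cuts fibrillar collagen, MMP2 and MMP9 are gelatinases that cut denatured and basement membrane collagen, and MMP10 is a stromelysin with a broad choice of matrix substrates. MMP14 works at the cell surface, where it cuts collagen and, together with TIMP2, activates the MMP2 proenzyme. TIMPs block the active enzymes, TIMP1 is the partner of the MMP9 proenzyme, and TIMP3 is unusual in that it binds to the matrix itself. In melanoma this system is known for its part in invasion through basement membrane and collagen.

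The libraries held 21882863 to 26694140 gene counts each. RIPK4 itself had 319, 368 and 404 raw counts in A375neg replicates 1 to 3 and 42, 51 and 61 in A375RIPK4.KO replicates 1 to 3. Of the markers of the melanocyte lineage, SOX10 had 8844, 9781 and 10056 raw counts in A375neg and 7451, 7448 and 7858 in A375RIPK4.KO (log2 fold change −0.20, adjusted p = 0.0507 from edgeR). MITF, the lineage transcription factor, had 500, 440 and 535 and then 326, 288 and 376 (log2 fold change −0.44, adjusted p = 0.0449 from edgeR, under the fold limit of 1.5). For both, the normalized counts of the groups did not overlap, as was the case for 36.5% of all genes tested. The pigment genes PMEL, with 3 to 22 raw counts, and TYRP1, with 1 to 8, were near the limit of detection. S100B had 83 to 160 raw counts in A375neg and 55 to 64 in A375RIPK4.KO, and S100A1 had 50 to 58 and 23 to 32. Of 10 melanocytic markers, 6 had a row and 5 were tested, and 4 (MLANA, TYR, DCT and PRAME) had no row. The median log2 fold change of the 5 tested was −0.44, and all 5 values were negative. S100B and S100A1 were called lower, as were 4.65% of all genes tested. But of the 6 fits that each left out 1 library, S100B was called in 2 (without control replicate 1 or knockout replicate 2) and S100A1 in 0. Of 10 leukocyte markers, 7 had a row, their summed normalized count was 1093 to 1242 in A375neg and 1191 to 1270 in A375RIPK4.KO, and the pan-leukocyte gene PTPRC had at most 3 counts. Nearly all of that sum was CD68, a lysosomal gene that many cell types express, and 1 leukocyte marker, LYZ, was called lower, though in only 2 of those 6 fits (without knockout replicate 1 or 2). Of 10 fibroblast and endothelial markers, 8 had a row, with sums of 284 to 330 and 254 to 280. The 5 tested had log2 fold changes of −2.12 to 0.61, with a median of −0.11. PECAM1 fell from 21 to 24 raw counts to 4 or 5. CSF3R, a neutrophil receptor, was at 0 in 5 of the 6 libraries. The part of these markers in the results below was not tested. A375RIPK4.KO replicate 2 stood apart: against the mean of its group, the genes in the top quartile of exon length lay 0.19 lower on the log2 scale than those in the bottom quartile, where the other libraries ranged from −0.04 to 0.11.

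The sequence just before the start of a gene is where transcription is set up, and it was at hand for 4 of the genes, MMP10, MMP14, TIMP1 and TIMP3. These 4 include the protease that rose most, a pair of abundant genes that fell and an inhibitor that passed no threshold, so they are shown for comparison. Each run holds the 120 bases that end at the base before the RefSeq start (GRCh38.p14), written 5′ to 3′ on the gene's own strand.
MMP10 (chr11:102780629-102780748, minus strand): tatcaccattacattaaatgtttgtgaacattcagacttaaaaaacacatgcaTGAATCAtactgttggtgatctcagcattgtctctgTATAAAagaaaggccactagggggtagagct
MMP14 (chr14:22836465-22836584, plus strand): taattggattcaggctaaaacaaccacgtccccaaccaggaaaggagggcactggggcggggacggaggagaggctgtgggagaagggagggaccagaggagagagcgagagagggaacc
TIMP1 (chrX:47582316-47582435, plus strand): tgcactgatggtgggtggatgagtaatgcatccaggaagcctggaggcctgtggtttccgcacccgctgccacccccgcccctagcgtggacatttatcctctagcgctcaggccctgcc
TIMP3 (chr22:32801585-32801704, plus strand): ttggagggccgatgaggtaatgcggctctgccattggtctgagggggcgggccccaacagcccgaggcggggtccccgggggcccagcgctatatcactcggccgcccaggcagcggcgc
Capitals mark matches to TGANTCA, a loose form of the core bound by AP-1 factors, and to TATAAA, the TATA box. Each was searched on both strands over the 250 bases before the start. TGANTCA allows any middle base, where the usual AP-1 core has C or G, and the MMP10 match has A. Both motifs were chosen after the sequences had been seen. MMP10 held 1 of each, starting 67 and 31 bases before the gene, and the other 3 held neither. Among 35116 RefSeq promoters of the same length, 6.57% held TGANTCA and 10.7% held TATAAA. The G and C content of the printed bases was 36.7% for MMP10, 60.0% for MMP14, 62.5% for TIMP1 and 72.5% for TIMP3, beside a median of 60.0% over all promoters. A match describes letters and is not a measured binding site.

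All 7 metalloproteinases and 1 of the 3 inhibitors changed between the groups, and they did not move in 1 direction. MMP14, MMP2, MMP9, MMP19, MMP16 and TIMP3 were lower in A375RIPK4.KO, MMP1 and MMP10 were higher, and TIMP1 and TIMP2 did not pass the test. A gene is called changed where edgeR's quasi-likelihood test gave a Benjamini-Hochberg adjusted p under 0.05 over all genes tested and the fold change was at least 1.5. By this rule 8 of the 10 genes were called, 2 higher and 6 lower, beside 9.04% of all 14443 genes tested (4.39% higher and 4.65% lower). For 9 of the 10 genes every normalized count of one group lay beyond those of the other, beside 36.5% of all genes tested. The genes were listed with earlier results of these libraries known, so these shares describe them and are not independent evidence. Their median log2 fold change was −0.87, with a range of −3.04 to 2.54, beside a median of −0.0047 over all genes tested. With 3 libraries against 3, the exact permutation test cannot give a two-sided p below 0.1, and it gave 0.1 for each of the 9.

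**Figure D1:**
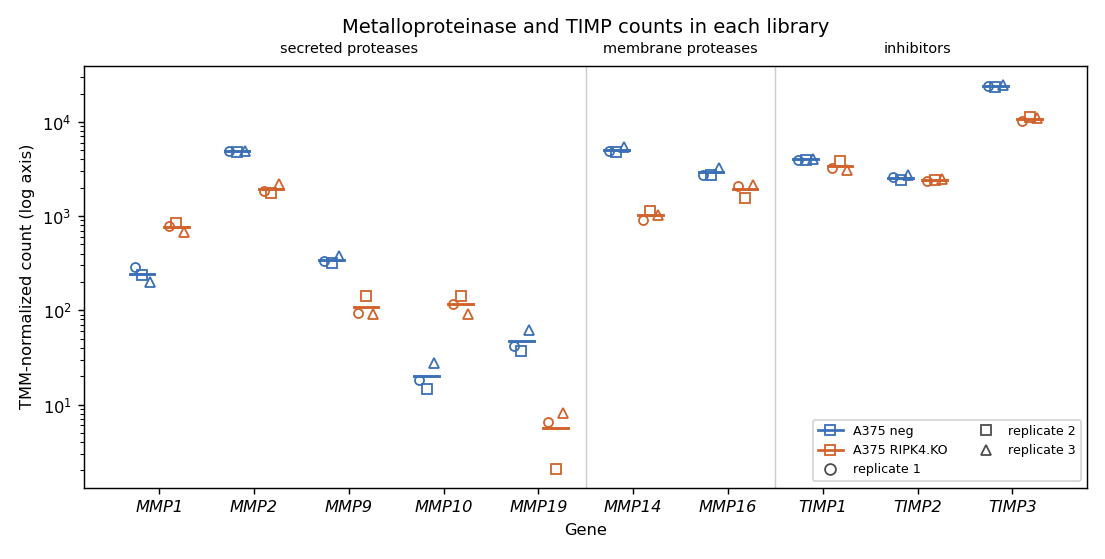
TMM-normalized counts (log axis) of the 10 genes in the 3 A375neg libraries (blue) and the 3 A375RIPK4.KO libraries (orange); a symbol is 1 library and a bar the mean of its group. MMP1 and MMP10 sit higher in every knockout library, while MMP2, MMP9, MMP19, MMP14, MMP16 and TIMP3 sit lower.

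MMP14, the membrane protease on chromosome 14 (22836585 to 22847758, GRCh38), showed the strongest evidence of change of the 10. It had 4902, 5164 and 5669 raw counts in the A375neg libraries and 833, 1079 and 1002 in the A375RIPK4.KO libraries. The lowest control library thus held over 4 times as many counts as the highest knockout library. After TMM normalization, which scales each library to a common size, these were 5010 ± 322 (SD, n = 3) and 1018 ± 108 (SD, n = 3). The log2 fold change was −2.30 ± 0.09 (SE), or 4.92-fold lower, at an adjusted p of 8.14e-07 in edgeR. By p it ranked 16 of the 14443 genes tested. Leaving out 1 library at a time kept the log2 fold change between −2.37 and −2.22.

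MMP16, the other membrane protease (chromosome 8, 88032011 to 88327483), changed far less. Its raw counts were 2724, 2999 and 3403 in A375neg and 1897, 1502 and 2086 in A375RIPK4.KO. The groups were apart, but the lowest value belonged to knockout replicate 2, the library with fewer counts in long genes, and MMP16 is long, with 12.1 kb of exon. The log2 fold change of −0.60 ± 0.12 (SE), at an adjusted p of 0.00792 in edgeR, lay just past the 1.5-fold limit. It fell short of that limit without knockout replicate 2 (−0.47), without control replicate 3 (−0.52) and with the length trend removed from each library (−0.57), with adjusted p from edgeR of 0.00148, 0.039 and 0.00165.

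MMP2, the gelatinase that MMP14 activates, lies on chromosome 16 (55478830 to 55506691). It had 4909, 5215 and 5203 raw counts in A375neg and 1690, 1669 and 2162 in A375RIPK4.KO. Every knockout library was below every control library. The means were 4881 ± 67.9 (SD, n = 3) and 1927 ± 235 (SD, n = 3) after normalization, with a log2 fold change of −1.34 ± 0.09 (SE), at an adjusted p of 1.25e-05 in edgeR. The range with 1 library left out was −1.44 to −1.27. MMP2 therefore fell with MMP14, though by less: the raw count of MMP2 over that of MMP14 was 0.976 ± 0.0509 (SD, n = 3) in A375neg and 1.91 ± 0.322 (SD, n = 3) in A375RIPK4.KO, without overlap.

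MMP9, the second gelatinase (chromosome 20, 46008908 to 46016561), had 330, 346 and 401 raw counts in A375neg and 85, 136 and 89 in A375RIPK4.KO. Knockout replicate 2 was the highest of its group, and the groups were well apart. Its log2 fold change of −1.66 had a 95% interval of −2.10 to −1.22 (adjusted p = 0.000429 from edgeR). The study lists MMP9 among its decreased genes from these same libraries, so this is no independent finding. An antisense gene, SLC12A5-AS1, covers 18.4% of the exon bases of MMP9 in GENCODE and was not analysed here. Other genes cover smaller parts of MMP1 (7.61%), TIMP2 (6.52% and 3.52%), MMP2 (3.53%) and MMP16 (0.974%). The overlap of MMP2 and the smaller one of TIMP2 lie on the same strand. What these overlaps did to the counts was not tested.

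MMP19 (chromosome 12, 55835433 to 55842936) was, with MMP10, the rarest of the proteases in A375neg and had the largest decrease of the 10, from 42, 40 and 65 raw counts to 6, 2 and 8. All 3 knockout libraries held under 10 counts, so the size of the change is imprecise. The log2 fold change was −3.04 with a 95% interval of −4.06 to −2.02 (adjusted p = 0.00178 from edgeR). The pseudogene TMEM198B, on the opposite strand, overlaps 17.4% of its exon bases and had 187 to 208 counts in A375neg and 66 to 139 in A375RIPK4.KO. The libraries were strand-specific, but the strand setting of the counting is not given in the sources used here. Whether reads in the shared stretch were lost or given to the wrong gene is therefore not known.

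MMP1, the interstitial collagenase (chromosome 11, 102789919 to 102798160), moved the other way. It had 288, 259 and 210 raw counts in A375neg and 713, 818 and 674 in A375RIPK4.KO. The lowest knockout library was over 2 times the highest control library. Normalized counts rose from 241.9 ± 44.5 (SD, n = 3) to 772.2 ± 85.5 (SD, n = 3), a log2 fold change of 1.68 ± 0.14 (SE), at an adjusted p of 7.07e-05 in edgeR. With 1 library left out it stayed within 1.55 to 1.82.

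MMP10, the stromelysin (chromosome 11, 102770502 to 102780628), rose from 18, 16 and 29 raw counts to 108, 136 and 91. It was the largest increase of the 10 genes, on low counts. The log2 fold change was 2.54 with a 95% interval of 1.88 to 3.20 (adjusted p = 0.000399 from edgeR), and 2.36 to 2.84 with 1 library left out. MMP10 closely resembles MMP3 in sequence, and whether reads that match both were dropped or assigned to 1 of them is not known. MMP3 had only 0 to 15 counts in any library, and its groups overlapped.

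MMP1 and MMP10 lie 9.29 kb apart, within a cluster of metalloproteinase genes on chromosome 11. The table held 13 further genes within 1000 kb of them, of which 8 were tested. None of the 8 was called by edgeR or by DESeq2. At an unadjusted p under 0.05 there were 5, a limit for which no share over all genes is given here. From edgeR, 2 of the 8 had an adjusted p under 0.05, beside 16.6% of all genes tested. These were BIRC3, at a log2 fold change of −0.45, and BIRC2, at 0.26, both inhibitors of apoptosis. In the cluster itself, MMP8, the neutrophil collagenase, had 25, 17 and 23 raw counts in A375neg and 4, 9 and 0 in A375RIPK4.KO. Its log2 fold change of −2.16 did not pass (adjusted p = 0.0717 from edgeR), although it was called without knockout replicate 2 (−3.22, adjusted p = 0.0217 from edgeR). MMP3, MMP12 and MMP13 were too rare to test, with at most 15 counts. BIRC2, BIRC3 and the other neighbours were looked at after the values were known.

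Of the inhibitors, TIMP3 (chromosome 22, 32801705 to 32863041) fell. It was the most abundant of the 10 genes, with 23801, 25524 and 26080 raw counts in A375neg and 9405, 10688 and 10927 in A375RIPK4.KO. No knockout library came near the control range. The normalized means were 24009 ± 631 (SD, n = 3) and 10838 ± 485 (SD, n = 3), and the log2 fold change was −1.15 ± 0.06 (SE), at an adjusted p of 5.05e-06 in edgeR. Leaving out 1 library gave −1.16 to −1.11.

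TIMP1 (chromosome X, 47582436 to 47586789) had 3935, 4311 and 4303 raw counts in A375neg and 2938, 3697 and 3030 in A375RIPK4.KO. After normalization the groups did not overlap, but knockout replicate 2, at 3859, came close to the lowest control library, at 3934. The ratio of knockout to control was 0.846 with a 95% interval of 0.739 to 0.969 (adjusted p = 0.0934 from edgeR). The adjusted p was 0.000807 without knockout replicate 2 and 0.00838 with the length trend removed, and in both fits the change was under 1.5-fold.

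TIMP2 (chromosome 17, 78852977 to 78925387) had 2572, 2595 and 2869 raw counts in A375neg and 2159, 2333 and 2413 in A375RIPK4.KO. Its normalized counts overlapped between the groups. The ratio of knockout to control was 0.943 with a 95% interval of 0.852 to 1.04 (adjusted p = 0.428 from edgeR), so that a change of 1.5-fold lies outside the interval in either direction. The same holds for TIMP1.

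**Figure D2:**
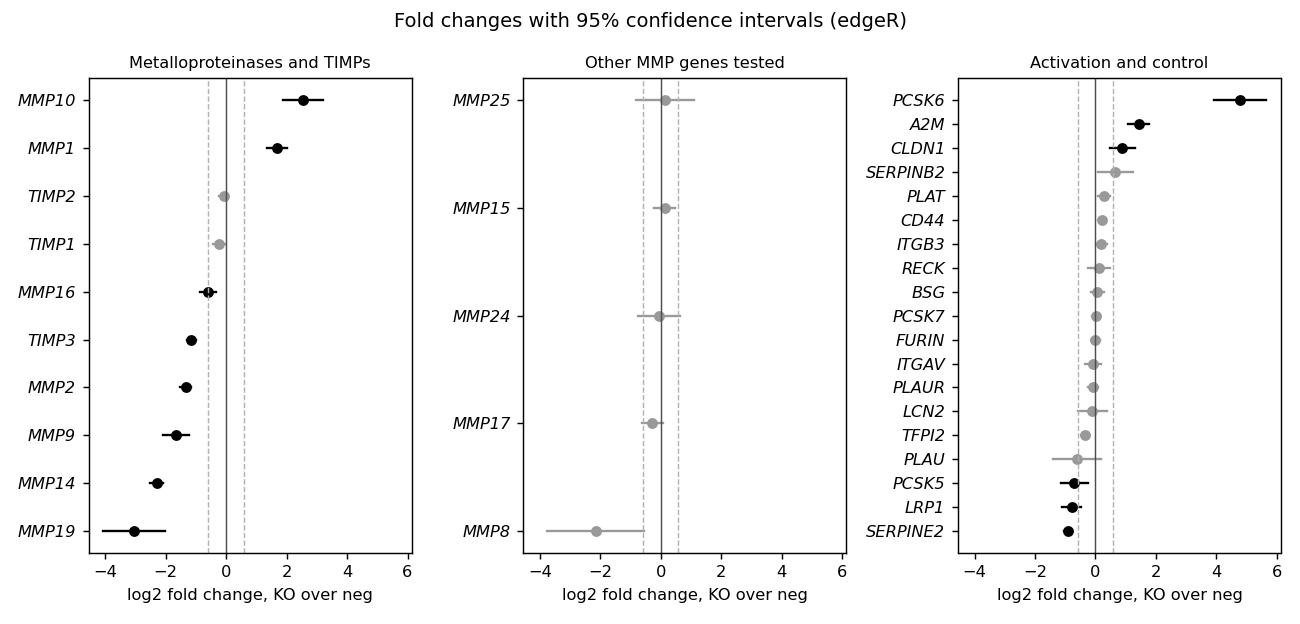
Log2 fold changes of A375RIPK4.KO over A375neg (points) with 95% confidence intervals (lines) from edgeR for the 10 genes, the other MMP genes tested, and genes that activate or control the proteases; black marks called genes, grey the others, and dashed lines the 1.5-fold limits. The 10 genes run from −3.04 for MMP19 to 2.54 for MMP10, and none of the other MMP genes was called.

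Levels of different genes can be set side by side only per length of transcript, so the normalized level (CPM) was divided by kilobases of exon. In A375neg the order of these levels was TIMP3 (213), TIMP1 (106), MMP14 (45.7), MMP2 (40.3), TIMP2 (18.5), MMP16 (9.77), MMP9 (5.98), MMP1 (5.004), MMP10 (0.465) and MMP19 (0.408). The libraries of MMP9 overlapped those of MMP1, and those of MMP10 overlapped those of MMP19. All other neighbours in that order were apart in all 3 libraries.

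In A375RIPK4.KO the order was TIMP3 (96.0), TIMP1 (89.4), TIMP2 (17.5), MMP1 (16.0), MMP2 (15.9), MMP14 (9.29), MMP16 (6.45), MMP10 (2.72), MMP9 (1.89) and MMP19 (0.0487). Here TIMP3 overlapped TIMP1, TIMP2 overlapped MMP1, MMP1 overlapped MMP2, and MMP10 overlapped MMP9. MMP14 and MMP2, which both lay above TIMP2 per length in A375neg, had mean levels below it in A375RIPK4.KO, although the libraries of MMP2 and TIMP2 overlapped, and MMP1 had moved from eighth place to the level of MMP2. Exon length was taken over all annotated transcripts of a gene, so levels of genes with rarely used long exons are underestimated.

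The make-up of the protease transcripts differed accordingly. Per length, MMP14 made up 42.4% ± 0.979 (SD, n = 3) of the 7 proteases in A375neg and 17.7% ± 1.49 (SD, n = 3) in A375RIPK4.KO. The share of MMP1 was 4.66% ± 0.960 (SD, n = 3) and 30.5% ± 3.18 (SD, n = 3). The share of MMP2 lay closer, at 37.5% ± 1.13 (SD, n = 3) and 30.5% ± 3.83 (SD, n = 3). Of the inhibitors, TIMP3 made up 63.1% ± 0.119 (SD, n = 3) in A375neg and 47.4% ± 2.29 (SD, n = 3) in A375RIPK4.KO, and TIMP1 made up 31.4% and 44.0%.

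The balance of proteases to inhibitors was computed within each library, where it does not depend on library size, and is a description with no test. It compares transcripts, not proteins or active enzymes, and the sums count every inhibitor alike, whichever protease it blocks. The summed normalized counts of the 7 proteases were 12932 to 14198 in A375neg and 5576 to 6197 in A375RIPK4.KO. Those of the 3 inhibitors were 29874 to 31517 and 15851 to 17450. Both sums were thus lower in every knockout library. The raw protease to inhibitor ratio was 0.436, 0.433 and 0.450 in the A375neg libraries and 0.368, 0.320 and 0.373 in the A375RIPK4.KO libraries. The groups did not overlap, and the mean ratio in A375RIPK4.KO was 0.804 of that in A375neg. Per kilobase it was 0.320 ± 0.00588 (SD, n = 3) against 0.258 ± 0.0121 (SD, n = 3).

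TIMP3 made up 78.6% of the raw inhibitor counts in A375neg and 65.2% in A375RIPK4.KO. With TIMP3 left out, the raw ratio was 2.03, 2.03 and 2.09 in A375neg and 1.05, 0.886 and 1.12 in A375RIPK4.KO. For the membrane proteases alone, the ratio to the inhibitors per kilobase was 0.165 ± 0.00720 (SD, n = 3) and 0.0779 ± 0.00610 (SD, n = 3). For the secreted proteases the direction depended on the scale. Their raw ratio overlapped between groups, with means of 0.181 and 0.176, whereas per kilobase it was higher in A375RIPK4.KO, 0.181 against 0.155, as short transcripts such as MMP1 weigh more on that scale.

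Ratios of known pairs of enzyme and inhibitor differed in both directions. Raw counts of MMP14 per count of TIMP2 were 1.91, 1.99 and 1.98 in A375neg and 0.386, 0.462 and 0.415 in A375RIPK4.KO. Those of MMP2 per TIMP2 were 1.91, 2.01 and 1.81 and then 0.783, 0.715 and 0.896. For MMP9 per TIMP1 they were 0.0839, 0.0803 and 0.0932 and then 0.0289, 0.0368 and 0.0294. These 3 ratios were lower in every knockout library, and neither TIMP1 nor TIMP2 was called. MMP1 per TIMP1 went the other way, from 0.0732, 0.0601 and 0.0488 to 0.243, 0.221 and 0.222. MMP14 per TIMP3, where both genes fell, was 0.209 ± 0.00785 (SD, n = 3) and 0.0937 ± 0.00644 (SD, n = 3), so MMP14 fell by more than TIMP3. None of the pair ratios overlapped between the groups.

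**Figure D3:**
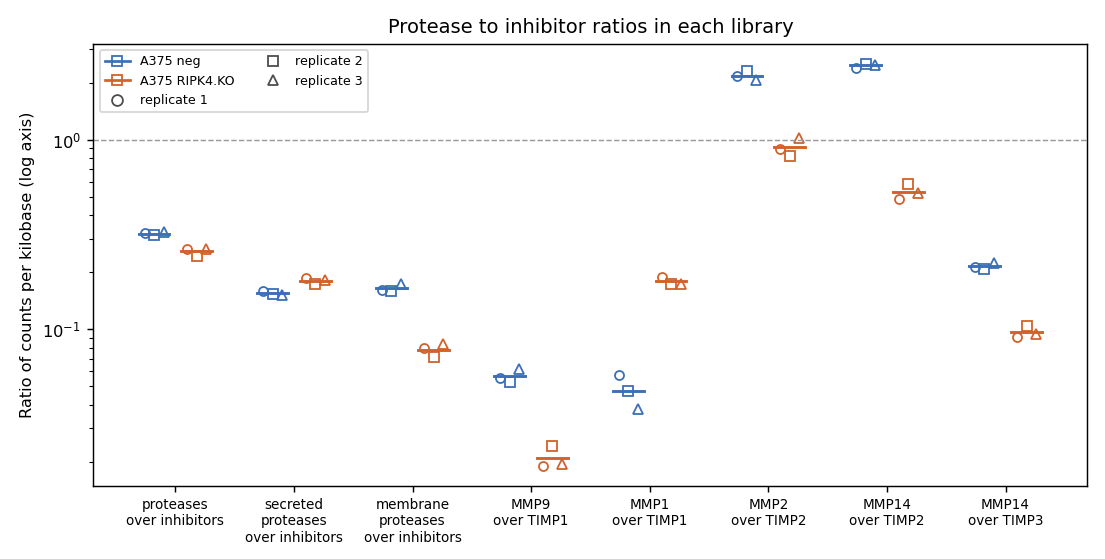
Ratios of counts per kilobase (log axis) in each A375neg (blue) and A375RIPK4.KO (orange) library; symbols are libraries, bars group means, and the dashed line is a ratio of 1. MMP14 over TIMP2 drops from a mean of 2.47 to 0.531, whereas MMP1 over TIMP1 rises from 0.0475 to 0.179.

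The rest of both families was nearly silent or did not pass. Of 18 further MMP and TIMP genes, 10 had a row and 5 of these had enough counts to be tested, namely MMP8, MMP15, MMP17, MMP24 and MMP25. None was called by edgeR or by DESeq2, and only MMP8 had an unadjusted p under 0.05. MMP15 and MMP17, which like MMP14 are held at the cell membrane, had 192 to 249 and 120 to 179 raw counts. Their log2 fold changes were 0.13 and −0.27. MMP24 and MMP25, also membrane-bound, had 17 to 26 and 10 to 19 raw counts, with log2 fold changes of −0.060 and 0.13. The other 5 had at most 15 counts in any library, and the 8 without a row, TIMP4 among them, were not analysed here.

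Among 19 genes that activate, inhibit, dock or clear the proteases, all were tested, with a median log2 fold change of 0.013. Of these, 3 were called higher and 3 lower, beside 4.39% and 4.65% of all genes tested. PCSK6, a proprotein convertase of the furin family, had 3, 3 and 1 raw counts in A375neg and 58, 65 and 62 in A375RIPK4.KO. Its log2 fold change of 4.78 rests on very few control counts and had a 95% interval of 3.92 to 5.65 (adjusted p = 4.78e-05 from edgeR). The gene was near silent in the controls and was detected in each knockout library, at a low mean level of 0.199 CPM per kilobase.

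A2M, a broad protease inhibitor that traps metalloproteinases, rose at a log2 fold change of 1.43 ± 0.16 (SE), and CLDN1, a tight junction protein, at 0.89 ± 0.18 (SE). SERPINE2, a serine protease inhibitor and the most abundant of the list per length, fell from a mean of 59997 to 31756 normalized counts. The other lower genes were LRP1, a receptor that clears protease complexes, at −0.78, and PCSK5, another convertase, at −0.70. PCSK5 was called in only 2 of the 6 fits with 1 library left out, and lost the call without control replicates 2 or 3 or knockout replicates 1 or 2 (log2 fold change −0.68 to −0.61). FURIN, which removes the propeptide of membrane metalloproteinases, had a log2 fold change of −0.012 with a 95% interval of −0.16 to 0.14, and RECK, a membrane-anchored inhibitor, had 118 to 133 raw counts in all libraries. BSG, the surface inducer of metalloproteinases, had a log2 fold change of 0.059 and was not called. TFPI2, at −0.34, and PLAT and CD44, at 0.28 and 0.22, had an adjusted p under 0.05 from edgeR but were under the fold limit. PCSK5, FURIN, RECK, BSG, TFPI2, PLAT and CD44 were named after their values were seen.

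Of 25 matrix proteins that such proteases cut or that lie beside their substrates, 22 were tested, with a median log2 fold change of −0.092. Of these, 3 were called higher and 4 lower, beside 4.39% and 4.65% of all genes tested. COL6A3, a chain of collagen VI, fell by 1.63 on the log2 scale, while COL6A2 and COL6A1, the other main chains of the same collagen, rose by 0.85 and 0.71. COL12A1 fell by 1.43 and COL4A5 by 0.92, and VCAN, a large proteoglycan, rose by 1.06. SPARC, a matrix-binding glycoprotein, fell by 0.62, but was under the fold limit without knockout replicate 1 (−0.57). The study also reports reduced SPARC from these same libraries, so this is no independent finding. COL6A1, SPARC and the genes that follow were named after their values were seen. The basement membrane chains COL4A1 and COL4A2, which gelatinases cut, had log2 fold changes of 0.53 and 0.47, under the 1.5-fold limit. COL4A1 passed it without control replicate 3 (0.60) or knockout replicate 2 (0.59). Of the same list, CSPG4, TNC and NID1 went the other way, at −0.43, −0.37 and −0.30. Each had an adjusted p under 0.05 from edgeR and was also under the fold limit. FN1, fibronectin, had 13707 to 16477 raw counts in A375neg and 14167 to 25042 in A375RIPK4.KO, where replicate 2 was the lowest. Its log2 fold change was 0.58 (adjusted p = 0.0521 from edgeR), and 0.79 without that library, when it was called. COL1A1, the fibrillar substrate of MMP1 and MMP14, had 1 to 27 raw counts and was not called. By qPCR in spheroids of the same knockout clone, the study reported COL1A1, COL4A2 and COL6A3 higher and COL12A1 lower.

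Of 14 AP-1 and ETS factors, known to bind metalloproteinase promoters, all were tested, with a median log2 fold change of −0.096. In this list 1 was called higher and 2 lower, beside 4.39% and 4.65% of all genes tested. JUN had 920, 1001 and 932 raw counts in A375neg and 1760, 1938 and 2000 in A375RIPK4.KO, a log2 fold change of 1.13 ± 0.06 (SE), at an adjusted p of 4.79e-06 in edgeR. ATF3 went from 439, 428 and 466 to 155, 190 and 172 raw counts and FOS from 174, 144 and 173 to 79, 84 and 82. All 3 are AP-1 genes. Of the ETS genes, ETS1, ETV4 and ETV5 had an adjusted p under 0.05 from edgeR, with log2 fold changes of 0.39, −0.43 and −0.35, under the fold limit. FOSL1, the most abundant of the list per length, had 10479 to 11451 raw counts in A375neg and 10653 to 11241 in A375RIPK4.KO and was not called. The ETS genes and FOSL1 were named after their values were seen.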

How the data were processed

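Poly(A)-enriched, strand-specific libraries of A375neg and A375RIPK4.KO (3 each) were sequenced on a NovaSeq. The submitters' processing notes name cutadapt, HISAT2, HTSeq, DESeq2 and GRCh38.p13. The deposited table holds raw counts per gene, made by the authors without normalization, which alone were used. Its normalized counts, fold changes and p-values are from the authors' own comparison and were not used.

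The test was the quasi-likelihood test of edgeR 4.0.16 (R 4.3.3) after TMM scaling and filterByExpr, with p-values adjusted by Benjamini-Hochberg across 14443 genes, and 3 counts per library were 0.112 to 0.137 CPM. Such limits and the p-values cover counting error and the spread between these libraries only. Normalized counts are raw counts divided by the TMM-scaled size relative to the mean. Exon lengths were taken from GENCODE 29 (91.4% of tested genes matched), gene positions and promoters from RefSeq.

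The members and gene lists were chosen with earlier results of these data known. Named are all 10 members and, from each other list, at most the 5 called genes with the largest change. Further genes of both families were to be given by their counts. Uncalled markers and the fold changes of MMP15, MMP17, MMP24 and MMP25 lie outside this rule. They were chosen after their values were seen, as were the exceptions stated in the text. A gene of the list of activating and controlling genes is not reported here and was left out of its counts after the values were known. Alternatives were DESeq2 1.42.0, other scalings and filters, a replicate block, a length correction and each library left out.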

Additional observations from a re-analysis of the deposited data

How the results depend on the processing

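Under the 13 alternatives, the sign of each of the 10 genes was the same wherever it could be fitted, and 126 of 129 fitted values gave the same call, by adjusted p and fold together. The 3 changed calls were all of MMP16. TIMP1 passed the adjusted p alone without knockout replicate 2 (0.000807) and with the length trend removed (0.00838), as stated above, and was called in neither. MMP19 could not be fitted where a mean of at least 50 counts was required. The number of members called was 7 to 8, with 2 higher in each alternative and 5 to 6 lower. It was 7 without control replicate 3 or knockout replicate 2 and 8 without any other library. With single libraries removed, the raw protease to inhibitor ratio had means of 0.434 to 0.443 in A375neg and 0.344 to 0.371 in A375RIPK4.KO. Those means moved to 0.320 and 0.258 per kilobase, to 0.280 and 0.237 without MMP2, and to 2.05 and 1.02 without TIMP3. Each was lower in A375RIPK4.KO.

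The number of markers called depended on the setting. Of the melanocytic markers 2 were called, against 1 with DESeq2, with no filter, with a mean of at least 50 counts or with the replicate block, and 0 to 1 with a library left out. Of the leukocyte markers 1 was called, against 0 under the filter of 50 counts and 0 to 1 with a library left out. Of the fibroblast and endothelial markers 1 was called, against 0 with that filter and 2 with the length trend removed. Of the other MMP genes 0 were called with all libraries and 0 to 1 with a library left out. The causes were not tested.

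Deviations of same-numbered libraries correlated at 0.082, 0.036 and −0.012 across genes, and those of differently numbered libraries at −0.096 to 0.067. With 3 libraries per group, these values cannot decide whether the replicate numbers pair the libraries. With the replicate block, 1266 genes were called in place of 1306, and 8 of the 10 members. At these depths genes with under 3 counts per library could not be told from absent ones.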
